A study of Homo sapiens with 34 samples.

Results

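SOX2 sites of MB157R cells that lost their call when the NOTCH1 intracellular domain was induced are described here. They were found by comparing the SOX2 peaks of MB157R iEV with those of MB157R iN1-ICD: an iEV site was called again if an iN1-ICD summit lay less than 500 bp from its own summit, and lost otherwise. On chromosomes 1 to 22 and X, 37661 of the 37963 iEV SOX2 summits were lost (99.2%), 302 were called again (0.796%, 95% exact binomial interval 0.709 to 0.890), and 21 of the 323 iN1-ICD summits had no iEV summit that close. The lost summits are part of the 290228 peaks in the 8 lists of the study.

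MB157 is a triple-negative breast cancer line whose NOTCH1 lacks its extracellular domain and is constitutively active, and MB157R was derived from it by 25 weeks in 1 µM of the γ-secretase inhibitor (GSI) LY3039478. Both MB157R groups carried a doxycycline-inducible lentiviral vector and received 1 µg/ml doxycycline for 72 h. The vector was empty in iEV and carried an HA-tagged NOTCH1 that lacks the extracellular domain in iN1-ICD. SOX2 and RBPJ were immunoprecipitated from both, RBPJ also from MB157 iEV and from MB157 with inducible HA-SOX2 (iSOX2), and HA from these MB157 cells. The transduced cells were not described as single clones. Each group of immunoprecipitations held 3 libraries, except the HA control of MB157 iEV with 1, and peaks had been called once on the pooled libraries. With 1 list per condition, replicate error cannot be estimated for any difference between conditions. The tests below compare sites within these lists, and intervals cover counting error only.

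SOX2, a stem cell transcription factor, bends DNA at a short core sequence and often binds next to POU factors such as OCT4, which recognise an octamer. RBPJ binds DNA and recruits the NOTCH intracellular domain to target genes such as HES1, HEY1 and NRARP. In breast cancer SOX2 is known for its link to stem-like states and drug resistance.

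Strong lost and called-again sites and 2 lost sites at NOTCH pathway genes show what the SOX2 peaks held. Each line is the plus strand of hg38 for 40 bases on either side of the iEV summit, with words of the SOX core (ACAATG or ACAAAG), the octamer (ATGCAAAT), AP-1 (TGAGTCA or TGACTCA), RBPJ (GTGGGAA) and TEAD (GGAATG) in capitals, on either strand.
NRARP promoter, lost, chr9:137302277-137302357: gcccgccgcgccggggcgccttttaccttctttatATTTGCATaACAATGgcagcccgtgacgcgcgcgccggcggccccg
CLIC5, lost, chr6:46062315-46062395: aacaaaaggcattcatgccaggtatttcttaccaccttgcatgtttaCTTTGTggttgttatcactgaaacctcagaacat
PLA2G4C, lost, chr19:48124032-48124112: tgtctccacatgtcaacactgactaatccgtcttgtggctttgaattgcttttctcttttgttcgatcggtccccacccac
DNMT1, lost, chr19:10204692-10204772: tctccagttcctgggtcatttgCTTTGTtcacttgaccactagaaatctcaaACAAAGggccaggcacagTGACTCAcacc
LFNG first intron, lost, chr7:2524119-2524199: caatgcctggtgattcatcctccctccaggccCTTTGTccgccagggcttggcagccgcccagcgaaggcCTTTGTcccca
NOTCH1 promoter, lost, chr9:136546326-136546406: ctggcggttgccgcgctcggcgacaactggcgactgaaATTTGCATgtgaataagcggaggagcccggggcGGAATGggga
MTF2 promoter, called again, chr1:93079110-93079190: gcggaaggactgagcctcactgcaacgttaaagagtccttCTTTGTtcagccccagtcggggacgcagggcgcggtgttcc
VWCE, called again, chr11:61297811-61297891: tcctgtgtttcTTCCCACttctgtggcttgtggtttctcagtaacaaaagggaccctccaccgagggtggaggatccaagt
CDKAL1 intron, called again, chr6:20543120-20543200: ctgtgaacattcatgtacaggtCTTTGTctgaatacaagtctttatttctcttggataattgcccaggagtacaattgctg
PHYHD1, called again, chr9:128912585-128912665: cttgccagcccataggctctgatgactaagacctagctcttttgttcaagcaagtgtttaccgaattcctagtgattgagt
The bases shown for the sites nearest to PLA2G4C and PHYHD1 held none of these words. Within 100 bp of the summit, the PLA2G4C site had a SOX core and the PHYHD1 site a TEAD word. The NRARP site held an octamer and a SOX core 1 base apart, the arrangement at which SOX2 and OCT4 are known to bind together, in an unusually short called region that is described below. The SOX core also stood in a called-again site such as MTF2, so its presence does not mark the lost sites.

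The loss of calls ran through the whole list, and a site's strength in iEV went with whether it was called again. The median fold enrichment in iEV, the authors' ratio of signal at the summit to the local input background, was 5.29 at lost and 16.7 at called-again sites. Of sites under a fold of 5, 48 of 16828 were called again (0.285%), and of those of fold 5 to 10, 31 of 16638 (0.186%). Without places of raised background, defined below, these counts were 5 of 16573 (0.0302%) and 23 of 16559 (0.139%). The count was 48 of 294 at fold 20 to 25 (16.3%, 12.3 to 21.1), 43 of 114 at 25 to 30 (37.7%, 28.8 to 47.3) and 9 of 14 at 40 or more (64.3%, 35.1 to 87.2). These values come from the comparison that defines the sites and are given as a description.

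RBPJ of the same cells followed another course. Of 46601 RBPJ summits of MB157R iEV, 26218 were called again with iN1-ICD (56.3%), and 50.7% at the smallest p of the iN1-ICD SOX2 list. In the fold range of 20 to 25, where 16.3% of SOX2 summits were called again, 305 of 306 RBPJ summits were (99.7%, 98.2 to 100). No spike-in is described for these libraries, and less SOX2 in the cells, a weaker SOX2 pulldown and loss of SOX2 from single sites cannot be told apart here.

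**Figure D1:**
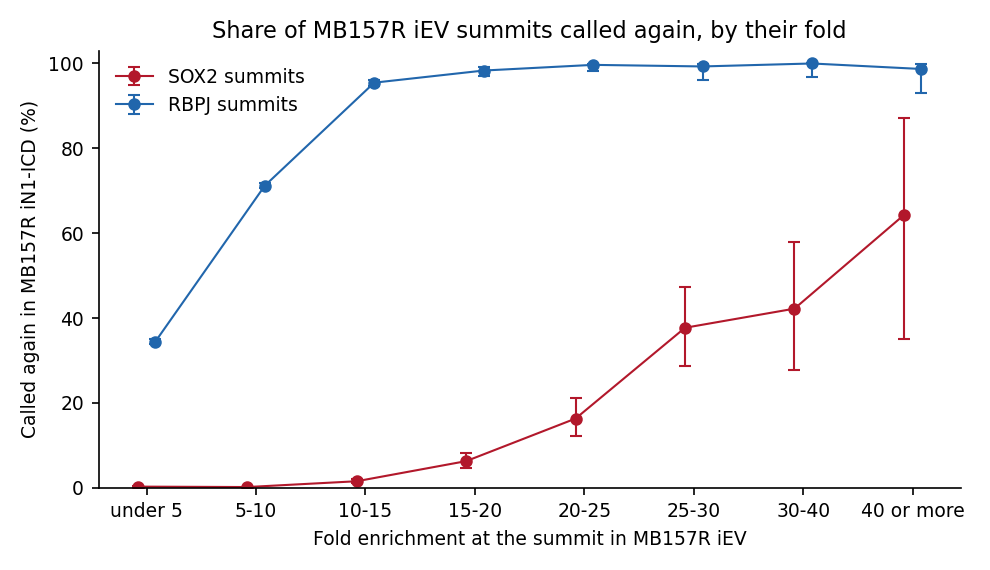
Share of MB157R iEV summits that were called again in MB157R iN1-ICD (y axis, %) by their fold enrichment in iEV (x axis), with exact binomial 95% intervals. SOX2 (red) stayed under 1% below a fold of 10 and reached 64.3% at 40 or more, whereas RBPJ (blue) was at 95.5% or above from a fold of 10.

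The 2 lists were not equally easy to enter. The smallest −log10 p was 3.53 in iEV and 5.53 in iN1-ICD, and at the genome-wide background of each list (1.96 and 1.74 fragments) a summit needed 8 and 10 fragments. Of the iEV peaks, 33556 passed the −log10 p of 5.53, and 0.876% of these were called again. With unchanged signal at the depth of the iN1-ICD list, 30188 of the 37661 lost sites (80.2%) were expected to reach a call. For the other lost sites a change was not detectable at this depth.

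The missing call gives an estimate of the most SOX2 signal that can have remained. With the local background scaled by the ratio of the genome backgrounds (0.888), a lost site was taken to have kept no more than the fragments just short of a call. This limit is not a strict bound. It leaves out counting error in the fragments, and the background in iN1-ICD is known only where a peak was called. At the 302 called-again sites it was 0.890 times the scaled one in the median (interquartile range 0.717 to 1.08), 25 sites were called with fewer fragments than estimated, and a limit from their own background would have been 0.585 to 1.60 times the estimate. The estimated limit had a median of 60.8% of the iEV signal over the lost sites, lay under 50% at 13538 of them, under 25% at 3001 and under 10% at 68. The lowest was 5.07%, at the NRARP promoter, followed by 6.29% nearest to CLIC5.

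Sites that were called again had lost most of their signal, apart from a set in gene-poor DNA. Over the 302 sites the signal remaining in iN1-ICD had a median of 23.7% (interquartile range 18.8 to 37.0), and the fold was lower than in iEV at 269. At the 227 sites with ordinary background and a protein-coding transcription start site (TSS) within 1 Mb it was 22.1% (18.3 to 26.7), with a median fold of 20.7 in iEV and 5.55 in iN1-ICD, and none exceeded 100%. A site had to exceed the threshold to enter this set, so at low iEV fold only a high remaining signal could be seen. At the strongest sites, where the threshold matters least, the 9 called-again sites of fold 40 or more kept 11.2 to 19.7%. The limit at the 5 lost sites of that strength was 5.07 to 7.36%, and neither range includes counting error. Lost sites fell short of a call and called-again ones passed it, so the order of these ranges follows from the rule.

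The other called-again sites lay in places of unusual background. An input background of at least 5 times that of the genome was found at 350 iEV sites, of which 61 were called again (17.4%, 13.6 to 21.8), against 241 of 37613 other sites (0.641%, 0.563 to 0.727). Of these 61, 45 lay on chromosomes 1, 2, 4, 5, 10, 13, 16 and 17, at least 123 kb and in the median 724 kb from a protein-coding TSS. Their fold was low in both lists (median 1.80 in iEV and 1.81 in iN1-ICD) and the signal was kept, with a median of 138% of that of iEV. All 23 called-again sites beside a summit of the HA control, the HA immunoprecipitation of MB157 iEV cells without HA-SOX2, were among these 45. A further 14 called-again sites had ordinary background and lay over 1 Mb from a TSS. They kept 91.1% in the median, and 8 of them were between 16.3 and 17.9 Mb on chromosome 13 (71.5 to 156%).

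Chromosomes 3 and 6 held the remaining 16 called-again sites of raised background. They lay 74.99 kb from a TSS in the median: on chromosome 3 between 9.2 and 14.0 Mb, around SETD5, IRAK2, HRH1 and WNT7A, 155 iEV sites had raised background, and on chromosome 6 between 20.4 and 22.8 Mb, around CDKAL1 and SOX4, 114 did. Of these 269 sites 253 were lost. The 16 called again kept 16.3% of their signal in the median (8.74 to 27.6%) and thus resembled the ordinary sites in what remained, with many more fragments behind each call. The site in intron 2 of CDKAL1, a tRNA-modifying enzyme (chromosome 6, 20542612 to 20543686), had 1599 fragments in iEV and 242 in iN1-ICD, and 15.5% remained. A site 21.96 kb downstream of the TSS of SOX4 went from 617 to 119 fragments, and 15.7% remained.

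**Figure D2:**
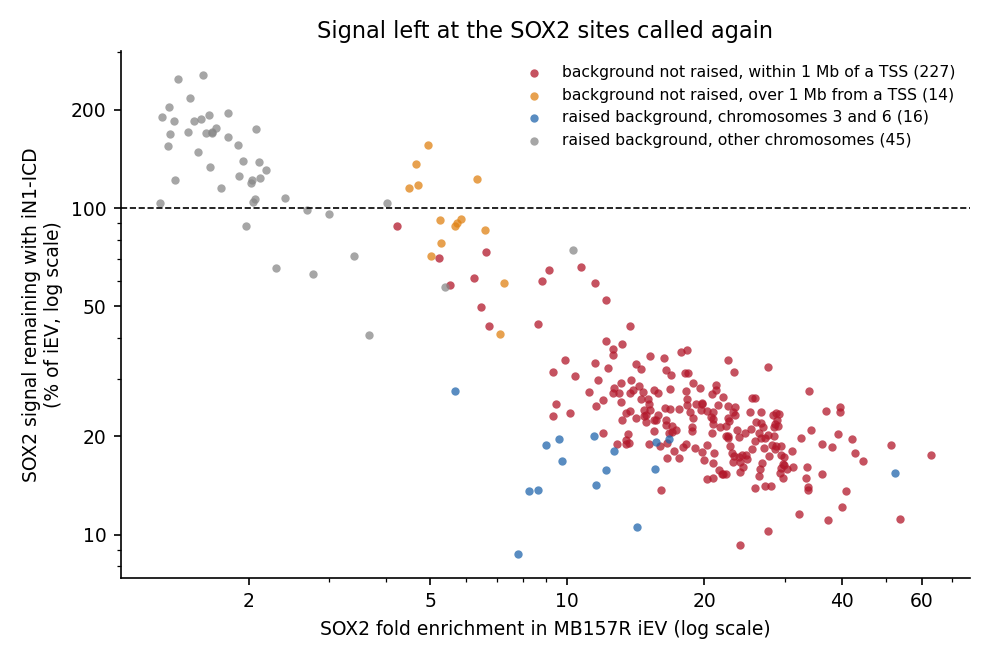
SOX2 signal remaining with iN1-ICD (y axis, % of iEV, log scale) at the 302 sites called again, by their fold in iEV (x axis, log scale); the dashed line is unchanged signal. Ordinary sites (red) had a median of 22.1% and sites on chromosomes 3 and 6 (blue) 16.3%, whereas raised-background sites elsewhere (grey) and sites over 1 Mb from a TSS (orange) had medians of 138% and 91.1%.

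Every type of genomic site lost nearly all of its calls. Of 4376 promoter summits, within 1 kb of a protein-coding TSS, 4362 were lost (99.7%, 99.5 to 99.8). The share lost was 99.6% at 1297 lncRNA promoters, 99.4% at 521 exonic sites, 99.5% at 4606 sites in first introns and 99.3% at 8698 in other introns. It was 99.2% at 7699 intergenic sites within 50 kb of a TSS and 98.7% (98.5 to 98.9) at 10766 beyond 50 kb, where it was 99.2% without sites of raised background. Among the lost sites, distal intergenic ones were the most frequent type, with 28.2%, followed by introns other than the first with 22.9%, while promoters made up 11.6%.

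**Figure D3:**
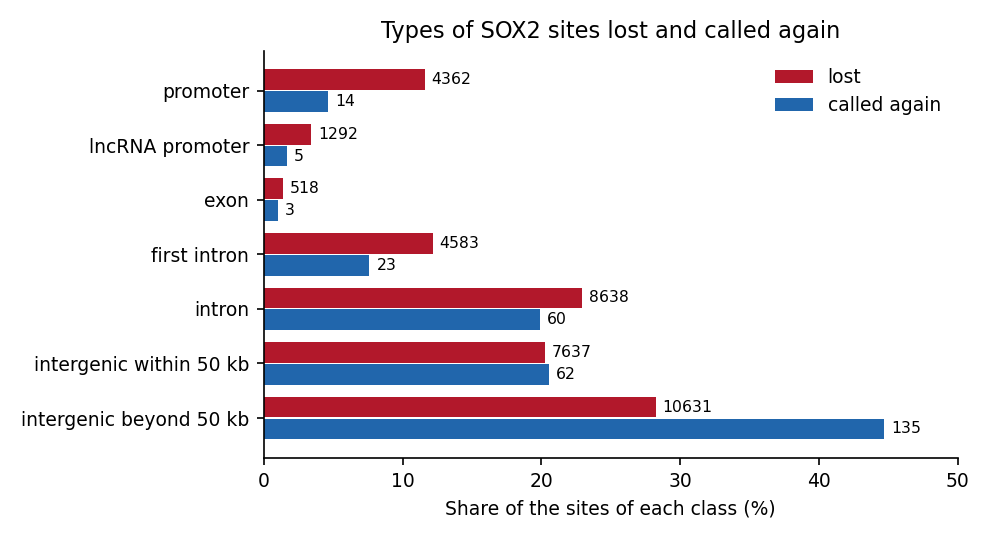
Types of SOX2 sites as a share (x axis, %) of the 37661 lost (red) and the 302 called-again sites (blue), with counts at the bars. Promoters were 11.6% of lost and 4.64% of called-again sites, and distal intergenic sites 28.2% and 44.7%.

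The promoter sites were weaker than the distal ones, with a median iEV fold of 4.35 against 5.55 beyond 50 kb. Over 5 bins of fold with equal numbers of called-again sites, promoters did not differ detectably between called-again and lost sites (Mantel-Haenszel odds ratio 0.603, 0.331 to 1.10, adjusted chi-square p = 0.16), and the estimate was 0.974 (0.525 to 1.81) without raised background. The direction was not the same in all bins. Promoters were 1.64% of called-again and 14.5% of lost sites in the lowest bin. The shares were 1.67% and 5.83% in the next bin and 1.67% and 3.71% in the middle one. From a fold of 19.8 they were 8.33% and 3.06%, and in the highest bin 9.84% and 2.78%. Single bins were not tested, and they divide 14 called-again promoters. With promoters taken as 5 kb on either side of a TSS they were less frequent among called-again sites (0.615, adjusted chi-square p = 0.044). The median limit on the remaining signal was 78.7% at lost promoters, so the loss there was less well bounded than in introns other than the first (57.4%).

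Chromosomes differed in their few calls. The share called again was lowest on chromosomes 12 (2 of 1562, 0.128%, 0.0155 to 0.462) and 18 (1 of 774, 0.129%, 0.00327 to 0.718), and highest on 13 (17 of 880, 1.93%, 1.13 to 3.08) and 17 (27 of 1669, 1.62%, 1.07 to 2.35). Without raised background, chromosome 17 had 1.15% and chromosome 13 1.82%, while chromosome 10 had 0.123% (2 sites) and chromosome 16 0.139% (1 site), so the order at the low end rests on 1 or 2 sites each. Of the 16 such sites on chromosome 13, 8 were those between 16.3 and 17.9 Mb that lay over 1 Mb from a TSS.

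RBPJ lay beside most of the lost SOX2 sites. Within 500 bp, 21388 lost sites had an RBPJ summit in iEV (56.8%) and 13019 had an HA-SOX2 summit of MB157 iSOX2 (34.6%). Of the lost sites 8050 had both (21.4%), 13338 only RBPJ, 4969 only HA-SOX2 and 11304 neither (30.02%). Promoters were 26.6% of the sites with both and 4.11% of those with neither. The SOX core was found within 100 bp at 57.6% of the sites with HA-SOX2 alone, against 34.5% with RBPJ alone, and the AP-1 word, recognised by FOS and JUN dimers, at 24.6% and 35.8%.

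RBPJ mostly stayed where SOX2 lost its call, except at weak RBPJ summits. Of the 21388 lost SOX2 sites with RBPJ in iEV, 14267 had an RBPJ summit in iN1-ICD too (66.7%). Counted over RBPJ summits, 66.9% (66.3 to 67.5) of 21366 beside a lost SOX2 site were called again, against 46.8% (46.2 to 47.5) of 24991 with no iEV SOX2 site. RBPJ summits beside lost SOX2 sites were stronger (median fold 5.67 against 4.82). Under an RBPJ fold of 5 most were not called again, with shares of 43.5% (42.5 to 44.6) and 28.8% (28.1 to 29.6). Within RBPJ folds of 5 to 10 the shares were 77.4% (76.6 to 78.2) and 64.1% (63.1 to 65.1), and at 20 or more 99.7% and 99.2%.

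SOX2 sites that were called again more often had RBPJ and HA-SOX2 beside them than lost sites of like fold. RBPJ of iEV was beside 243 of 302 called-again sites (80.5%, against 56.8% of lost ones), with an odds ratio of 1.48 over bins of fold (1.09 to 2.03, Cochran-Mantel-Haenszel test, two-sided, adjusted chi-square p = 0.028 over 16 features) and of 1.89 without raised background (1.27 to 2.82, adjusted chi-square p = 0.0069). RBPJ of iN1-ICD was beside 245 (81.1% against 44.4%), with an odds ratio of 3.35 (2.47 to 4.55, adjusted chi-square p = 2.8e-15). RBPJ of MB157 iEV, cells that are not GSI-resistant, was beside 89 (29.5% against 14.9%, odds ratio 2.42, 1.84 to 3.19, adjusted chi-square p = 7.3e-10). HA-SOX2 was beside 172 (57.0% against 34.6%, odds ratio 1.37, 1.07 to 1.76, adjusted chi-square p = 0.028), and this was no longer past the threshold without raised background (1.35, adjusted chi-square p = 0.090) or without sites of the HA control (1.18, adjusted chi-square p = 0.39). The RBPJ result of iEV also missed the threshold without sites of the HA control (1.39, adjusted chi-square p = 0.15).

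The SOX core was more frequent at lost summits than beside them. It was found in the 201 bases around 43.0% of lost summits, against 23.8% of windows 1 kb before them, while the same letters reversed were at 25.1% and 21.7%. The AP-1 word was at 31.0% and 3.38%, and the TEAD word, recognised by the partners of YAP, at 18.9% and 10.5%. The SOX core was more frequent at stronger sites, from 36.3% of lost sites in the lowest bin of fold to 83.3% in the highest (26.5 and above), where 77.0% of called-again sites had it.

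At like fold, no sequence word passed the threshold once places of raised background were left out. The SOX core had an odds ratio of 0.751 for called-again against lost sites (0.576 to 0.977, adjusted chi-square p = 0.063) and of 0.962 without raised background (0.712 to 1.30, adjusted chi-square p = 0.94). AP-1 was less frequent at called-again sites (0.692, 0.528 to 0.908, adjusted chi-square p = 0.022), and was at 0.848 (0.633 to 1.14, adjusted chi-square p = 0.58) without raised background. TEAD was more frequent (2.02, 1.56 to 2.63, adjusted chi-square p = 1.5e-07) and was at 1.41 (1.02 to 1.94, adjusted chi-square p = 0.090) without it.

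**Figure D4:**
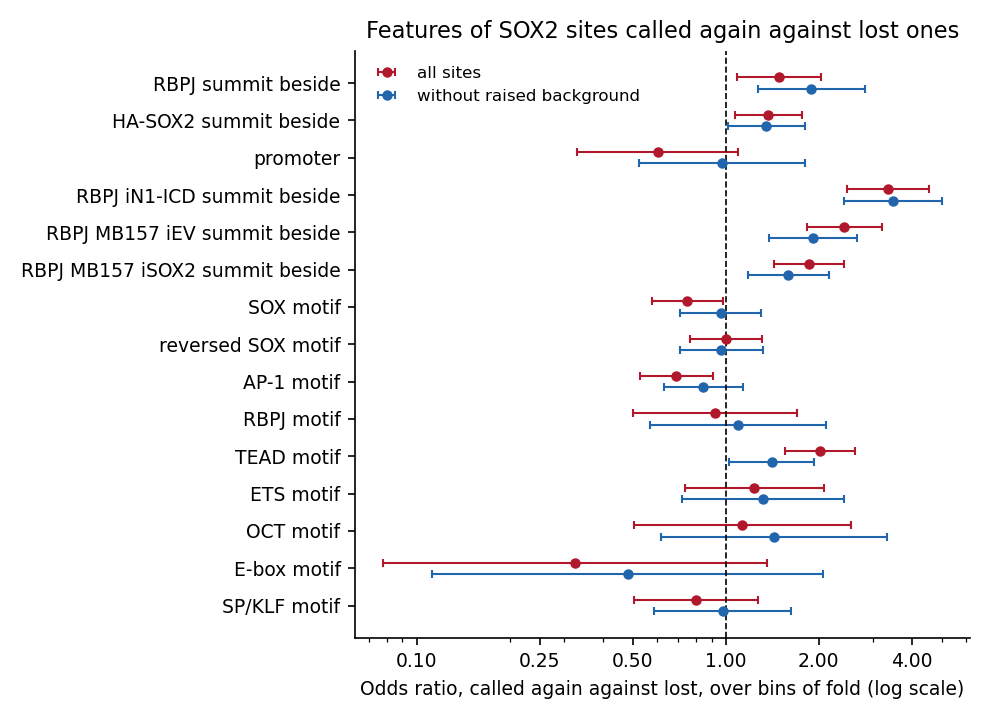
Mantel-Haenszel odds ratios (x axis, log scale) of 15 features at called-again against lost SOX2 sites over bins of iEV fold, with 95% intervals, for all sites (red) and without sites of raised background (blue). The RBPJ lists lie above 1 in both, with 3.35 for RBPJ of iN1-ICD, and the words of SOX and AP-1 move to 0.962 and 0.848 without raised background.

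The sequence of SOX core, 1 base and octamer (CATTGTNATGCAAAT or CTTTGTNATGCAAAT, either strand), looked for after it was seen at NRARP, was rare. It was found at 5 of 37661 lost sites (0.0133%), 0 of 302 called-again sites, 0 windows 1 kb before the lost sites and 1 of 19970 windows at protein-coding TSSs. A count of 0 of 302 allows up to 1.21% (exact binomial). Of lost sites of fold 20 or more, 2 of 348 had it, and the NRARP site was the stronger.

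Counted by gene, the loss was about that of the sites, as a gene with a site had 1 in the median. Of 9709 protein-coding genes whose TSS was the nearest to an iEV site within 50 kb, 9590 lost every call (98.8%), among them 776 of the 826 genes with at least 5 sites. Of 4096 genes with a SOX2 summit at their promoter, 4082 lost it (99.7%). Among the genes with most lost sites were PDP1, a phosphatase that activates pyruvate dehydrogenase (15 of 15), MET, a receptor kinase (14 of 14), and ITGA6, a laminin receptor (13 of 13). An overlapping gene model without a symbol in PRKCH (ENSG00000258989) lost 14 of 16. The strongest sites of MET and ITGA6 were in their first introns, with folds of 11.6 and 19.6, and that of PDP1 lay 42.8 kb upstream (13.7).

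The strongest lost sites within 50 kb of a TSS bounded the loss most tightly. The SOX2 peak at the promoter of NRARP, which encodes a feedback inhibitor of NOTCH signalling (chromosome 9, 137302201 to 137302420), had a fold of 52.3 with 177 fragments, and a call in iN1-ICD needed 11. Its called region was 220 bp long, whereas the other 30 lost sites of fold 30 or more were at least 545 bp long. Neither RBPJ of MB157R nor HA-SOX2 had a summit within 500 bp. Whether this short region marks SOX2 binding cannot be told from the peak lists, and its limit is given with that reservation. CLIC5, of the chloride intracellular channel family, followed (46.5 kb upstream of the TSS, chromosome 6, 46061964 to 46062710), with a fold of 44.9 and 132 fragments where 10 were needed. A site nearest to PLA2G4C, a phospholipase gene, lay in intron 21 of LIG1 (fold 39.2, 115 fragments).

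DNMT1, the maintenance DNA methyltransferase, had its site 9.78 kb upstream of the TSS (fold 35.9), and ANGPT2, a vascular growth factor, in the first intron (35.5). COL21A1, a collagen gene, lost a site in its first intron (34.5) and DDX31, an RNA helicase gene, one in intron 15 (32.6). ABHD11 (33.3), CRNN, an epidermal differentiation gene (32.0), and LFNG, which glycosylates NOTCH receptors (31.8), completed the 10. The limit on the remaining signal was 5.07 to 8.30% in these 10 sites. RBPJ of iEV was beside 7, RBPJ of iN1-ICD beside 5 and HA-SOX2 beside 7. Of the 72 lost sites in the highest bin of fold (26.5 and above), 83.3% had RBPJ of iEV and 59.7% HA-SOX2.

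The strongest called-again sites within 50 kb of a TSS were weaker in iN1-ICD too, but stayed measurable. The promoter of MTF2, an accessory subunit of the PRC2 repressor complex (chromosome 1, 93078842 to 93079565), went from 284 to 46 fragments and from a fold of 62.9 to 13.7, so 17.5% of the signal remained. Upstream of VWCE (chromosome 11, 61297459 to 61298182) the fold went from 53.8 to 5.91 (11.2% remaining). At the promoter of PLPP2, a lipid phosphatase, it went from 42.7 to 9.30 (17.8%), and 21.8 kb downstream of the TSS of SPRY1, an inhibitor of receptor kinase signalling, from 40.9 to 6.20 (13.6%). PHYHD1, CEP41, MACC1, FTSJ1 and F2RL1, which encodes a protease-activated receptor, completed the list with CDKAL1, and 11.1 to 27.6% remained in these 10 sites. All 10 had RBPJ of iEV and HA-SOX2 beside them, and 9 had RBPJ of iN1-ICD. In the highest bin of fold (26.5 and above) RBPJ of iEV was beside 91.8% of 61 called-again and 83.3% of 72 lost sites. HA-SOX2 was beside 70.5% and 59.7% of them, so the lists of 10 overstate the contrast at like fold. At any distance from a TSS, each of these lists was beside 9 of the 10 strongest called-again sites. One of them, in intron 3 of TEAD1, had the fifth highest iEV fold (51.4, 18.8% remaining) and no RBPJ of iEV beside it.

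**Figure D5:**
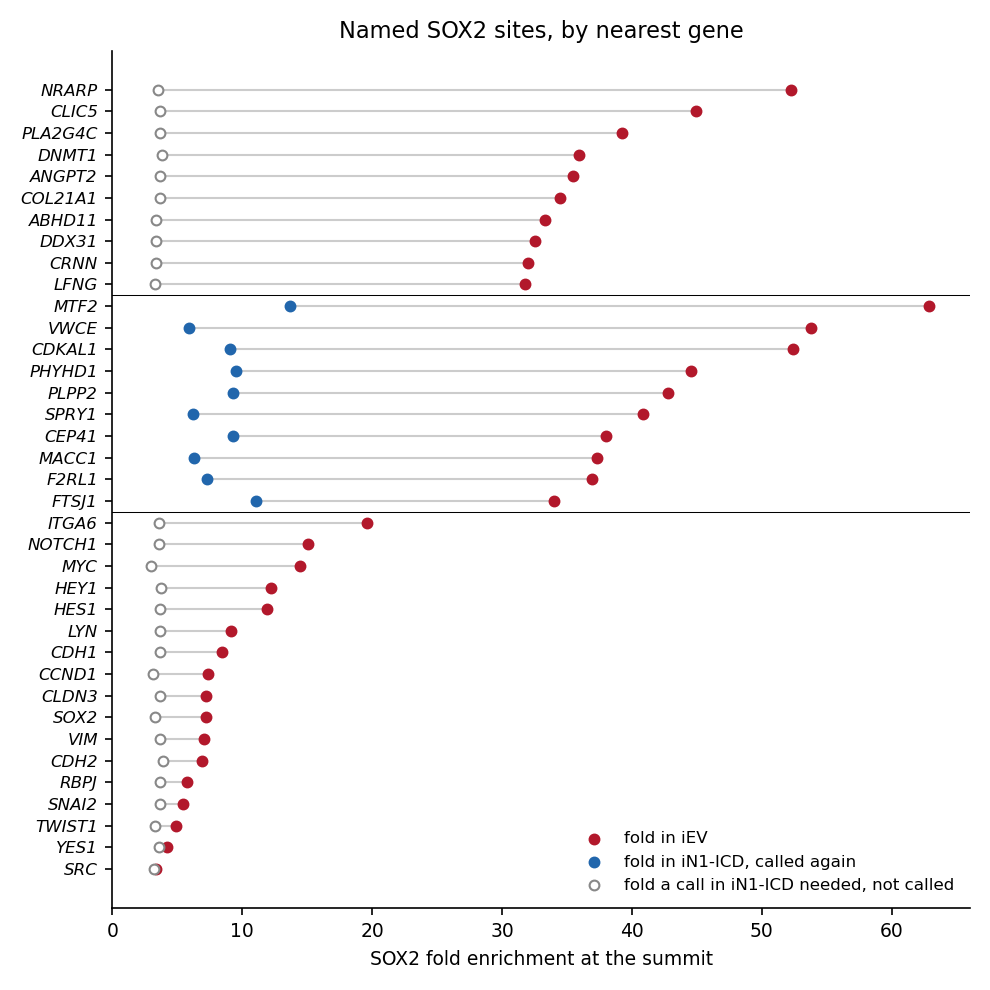
SOX2 fold at named sites in iEV (red), in iN1-ICD where called again (blue), and the fold a call in iN1-ICD needed where lost (open), for the 10 strongest lost sites, the 10 strongest called-again sites and the strongest site of 17 genes of the NOTCH, SOX2 and Src context. Lost sites of the top group had folds of 31.8 or more in iEV where a call needed 3.25 to 3.79, and the called-again sites had 34.0 or more in iEV and 5.91 to 13.7 in iN1-ICD.

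Just 14 promoters were called again. Besides MTF2, PLPP2 and CEP41 they were those of PTMA, HMGB1, C15orf62, ISL2, ZSCAN2, HOXA9, ADAM28, CLCF1, FAM227A, VASH2 and ELF3. The first 13 had iEV folds of 12.6 or more with 14.9 to 35.5% of the signal remaining, and ELF3 had a fold of 6.24 with 61.3%. The iN1-ICD summit at ELF3 lay 454 bp away, the farthest of all called-again sites, so this value sets different positions side by side. RBPJ of iEV was beside 13, RBPJ of iN1-ICD beside 12, and HA-SOX2 beside 12. Of lost promoters 78.4% had RBPJ of iEV, 69.1% RBPJ of iN1-ICD and 60.1% HA-SOX2.

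NOTCH pathway genes were among the losses at every site within 50 kb of their TSS. The counts by gene that follow are of sites within 50 kb whose nearest TSS is that of the gene. NOTCH1 lost all 8 of its sites, of which the strongest was the promoter peak (fold 15.04, 58 fragments, limit 19.2%), while 7 of the 8 had RBPJ of iN1-ICD beside them. HES1, a repressor and direct NOTCH target, lost 9 of 9, from 46.4 kb upstream (fold 11.9, limit 25.1%) to the promoter (fold 5.36, limit 58.2%), with RBPJ of iN1-ICD at 6. HEY1 lost 4 of 4 (strongest fold 12.2) and NRARP 4 of 4, and HEY2 and HEYL had no site within 50 kb. RBPJ itself lost 6 of 6, the strongest 36.3 kb upstream (fold 5.74, limit 58.2%). Over the groups, 21 of 21 sites of NOTCH target repressors were lost at 6 genes, 18 of 18 of NOTCH receptors and ligands, and 46 of 46 of NOTCH modulators at 17 genes, among them MAML2, a coactivator gene (fold 20.7), and SPEN, a corepressor gene (12.05). The share lost over all SOX2 sites was 99.2%, and 20148 of the 20272 sites within 50 kb of a TSS were lost. Full loss in groups of this size is thus the common outcome. Beyond 50 kb, 19 of 19, 41 of 41 and 36 of 36 sites nearest to or inside genes of these lists were lost too.

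SOX2 also lost its call at its own gene. All 5 sites of SOX2 were lost, the strongest 27.9 kb downstream (fold 7.20, limit 37.1%), and the promoter peak had been weak (4.10, limit 73.3%). In the SOX family 33 of 35 sites were lost, led by SOX9 (17.2) and SOX11 (16.04), and a site upstream of SOX13 (22.8% remaining) and the one at SOX4 were called again. Beyond 50 kb 152 of 156 were lost, and the 4 called again were in intron 13 of SOX6 (fold 34.2, 21.0% remaining), stronger than any lost site named in this family, and 72.1 to 149 kb from SOX4 (8.74 to 19.7% remaining). Pluripotency and stem cell genes lost 43 of 43 sites, among them ITGA6, CD44 (13.3) and KLF5 (11.7). Beyond 50 kb they lost 102 sites, and 1 site, 363 kb from KLF5, was called again (fold 14.9, 22.1% remaining).

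Growth and adhesion genes followed the same count. MYC lost 4 of 4 sites, with folds of 14.4 at 48.8 kb upstream and 6.33 at the promoter, and CCND1, the cyclin D1 gene, 4 of 4 (promoter 7.34). Farther out each had a stronger site that was called again, 172 kb downstream of MYC (fold 16.5, 17.2% remaining) and 144 kb upstream of CCND1 (29.2, 23.5%). CDH1, encoding E-cadherin, lost 8 of 8 (8.45), VIM 3 of 3 (7.08), SNAI2 3 of 3 (5.41), TWIST1 2 of 2 (4.89) and CDH2 3 of 3 (6.86). At these strongest sites the limit was 62.7% for SNAI2, 61.2% for TWIST1 and 51.3% for CDH2. It was 45.3% for VIM and 37.1% for CDH1, so much of the signal may have remained without a call. The list of Src family and related kinase genes lost 27 of 27 sites, led by FRK (14.4), and LYN (9.12), YES1 (4.17) and SRC (3.32) were in this group. At the strongest sites of SRC and YES1 the limits were 98.0% and 83.7%. At the promoters of SNAI2 and RBPJ even unchanged signal was not expected to reach a call. CLDN3, a tight junction gene, lost its single site (7.23). In all, the 18 of 20 such genes with a site lost 84 of 84 within 50 kb, and 122 of 124 beyond it, and the limit at the strongest site was under 50% for 12.

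Groups of cell state genes lost 40 to 58 sites each with few exceptions. Over all protein-coding genes, 20148 of 20272 sites within 50 kb were lost. EMT and mesenchymal genes lost 55 of 56, with TWIST2 (18.2) and SNAI1 (16.4) leading and a site upstream of TGFBI called again (22.5% remaining). Epithelial genes lost 58 of 58, the strongest upstream of CLDN1 (16.8) and at the promoters of ESRP1 (14.9) and CLDN4 (13.9). Basal mammary genes lost 54 of 55, with ITGB4 (15.2) following ITGA6 and a site 3.11 kb upstream of KRT15 called again (24.1% remaining). Luminal mammary genes lost 40 of 41, led by EHF (29.4) and FOXA1 (16.6), and the promoter of ELF3 was the exception, with a summit 454 bp away. Receptor kinase feedback genes lost 50 of 51, with SPRY4 (20.9) and DUSP6 (14.5) leading, and beyond 50 kb 101 of 102, with a site 64.5 kb from SPRY2 called again (39.6, 23.7% remaining).

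AP-1 family genes lost 44 of 44 sites, led by MAFK (18.8) and FOS (14.4), and YAP and TEAD genes 38 of 38, led by TEAD1 (26.2) and CCN1 (16.6). Beyond 50 kb they lost 28 of 30, and the sites called again were the one in intron 3 of TEAD1 and one in intron 2 of WWTR1 (23.8, 17.4% remaining), so the strongest site inside TEAD1 was called again. Cell cycle genes lost 26 of 26, led by CDKN2B (25.1), and ribosomal protein genes 23 of 23. Liver, blood cell and muscle genes, 10 in each list, had sites at 2, 2 and 4 genes and lost all 5, 5 and 8 of them. Between 20.0% and 94.4% of the genes of a list had an iEV site, against 48.6% of all protein-coding genes. No site within 50 kb was called again in 13 of the 18 lists. With 20148 of 20272 such sites lost over all protein-coding genes, that is the common outcome in lists of this size.

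The 21 iN1-ICD summits with no iEV summit within 500 bp were weak and far from genes, and 3 of them were overlapped by an iEV peak. All lay at least 71.1 kb from a protein-coding TSS, 14 had a background of at least 5 times that of the genome, and the median fold was 2.29 against 5.21 for the other 302 iN1-ICD summits. The highest, on chromosome 9 (43874057 to 43874378), had a fold of 6.57 with 17 fragments.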

How the data were processed

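SOX2, RBPJ and HA were mapped by ChIP-seq on double cross-linked cells. The authors aligned reads to hg38 (BWA, in the nf-core/chip-seq pipeline 2.0.0) and pooled the libraries of a group, with inputs as controls, for MACS2 narrow peak calls at an FDR of 0.05. Versions of BWA and MACS2 themselves are not given in the sources used here. The deposited lists give the peak start, end and summit as other columns, the authors' ratio (fold of summit signal over local input background), and the deposited −log10 p and −log10 q. Library depths were not used: fragments at a summit, a whole number, and their expected background were solved from the ratio and −log10 p (within 0.02 of a whole number for at least 99.69% of peaks of each list). The lowest such background in a list was taken as that of the genome, which is proportional to depth times fragment length.

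Other chromosomes than 1 to 22 and X were left out. The fragments above background in iN1-ICD, divided by those in iEV and by the ratio of the genome backgrounds, gave the remaining signal. Genes are GENCODE 44, with the 5′ end of the Ensembl canonical transcript as TSS (19970 protein-coding genes). Motifs were searched within 100 bp of a summit on both strands. Called-again and lost sites were compared by Mantel-Haenszel odds ratios and the two-sided Cochran-Mantel-Haenszel test over 5 bins of iEV fold, adjusted by the Benjamini-Hochberg method at 0.05 over 16 features. Alternatives changed the distance, the thresholds, the bins, the windows and the sites counted. Leaving out raised background or sites over 1 Mb from a TSS, and the 5′ end of the gene as TSS, were added after seeing the data. The canonical transcript was also chosen then, since some gene extents begin far from it. The recovery of fragments, the search for the nearest summit and the odds ratio were tested on simulated data, and the other steps were not.

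The sites, gene lists, motifs and tests were chosen with earlier results of these data known. Named were 20 genes at their strongest site, the 10 strongest lost and called-again sites (within 50 kb of a TSS, 1 per gene, none of the lost overlapped by an iN1-ICD peak), the 5 genes with most lost sites, the 5 strongest sites only in iN1-ICD, and up to 3 genes with lost sites and each gene with a called-again site per list; the remaining called-again promoters, sites of list genes beyond 50 kb and the region around chromosomes 3 and 6 were named after their values were seen. Some genes that these rules pick are not reported here. Tools were pysam 0.24.0, scipy 1.17.1, matplotlib 3.10.9, numpy 2.4.6 and pandas 2.3.3 in Python 3.11.15.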

Additional observations from a re-analysis of the deposited data

How the results depend on the processing

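No paired analysis was possible because each condition is 1 pooled peak list and the replicate numbers of the libraries are not carried into it; leaving out a library could not be done either. The share of SOX2 sites called again was 0.795511%, and it stayed inside its interval under distances of 250 and 1000 bp, a 1-bp overlap of peak regions, an equal −log10 p and without sites of the HA control. It was 0.685% with summits under 100 bp apart, 0.707% with a −log10 q of at least 5, 0.641% without raised background, 0.611% also without sites over 1 Mb from a TSS, and 36.2% when the iEV list was shortened to its 323 strongest peaks.

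The odds ratio of RBPJ was 1.42 with sites called again under 100 bp apart, 1.39 without HA control sites and 1.29 with RBPJ within 100 bp, each no longer past the threshold. That of HA-SOX2 likewise was 1.29, 1.18 and 1.34, and 1.35 and 1.40 without raised background and also without remote sites. AP-1 missed the threshold without bins (0.960), with 10 bins (0.760), without HA control sites (0.753), within 50 bp (0.731), and without raised background (0.848) or remote sites (0.977). Promoters passed it without bins (0.371) and within 5 kb of a TSS (0.615), and had 0.628 with the 5′ end of the gene as TSS, on the same side as before. Without bins, the SOX core turned to 1.78; past the −log10 p of iN1-ICD the SOX core passed it (0.726). Without raised background and remote sites, promoters turned to 1.02 and the SOX core to 1.06. Words without a call crossed 1 as well: RBPJ to 1.06 (no bins and 10 bins), 1.01 (equal −log10 p), 1.08 (no HA control sites), 1.10 and 1.15 (no raised background, nor remote sites), SP/KLF to 1.00500 (10 bins), and reversed SOX to 0.990 (100 bp), 0.979 (no HA control sites), 0.969 and 0.760. Remote sites are those over 1 Mb from a TSS. Depth limits the loss at weak sites: 7473 lost sites were not expected to reach a call even if unchanged.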
